A study of Mus musculus with 12 samples.

Results

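The genes described here are 45 targets, regulators and effectors of the integrated stress response and the unfolded protein response, out of 58735 genes measured in 12 RNA-Seq libraries of U2OS, a human osteosarcoma cell line. They were found by their full names in the gene table, and all 45 matched. The ATF4 amino acid arm holds 26 of them, and the ER chaperone arm holds 19, including 3 sensors of the endoplasmic reticulum (ER). The libraries came in 4 groups of 3 replicates. The blank group was U2OS cells, for which the labels name no agent. Further groups were U2OS cells given siSRSF1-2 or siSRSF1-3, which are siRNAs against the splicing factor SRSF1, and U2OS cells with LINC01134, a long non-coding RNA, overexpressed (OE-LINC01134). All groups used the same line, and no library of cells given a control siRNA or an empty vector was analysed here, so the effect of transfection and that of the agent cannot be told apart in a comparison with blank cells. The methods of the study describe transient transfection in HOS, another osteosarcoma line, while the labels give U2OS. The labels also give mouse as the organism, but the table lists human Ensembl identifiers.

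When unfolded proteins accumulate in the ER, or when amino acids run short, the cell lowers translation and changes its transcription. PERK (EIF2AK3), a sensor in the ER membrane, and related kinases in the cytosol phosphorylate the initiation factor eIF2α, after which ATF4 is translated and switches on genes for amino acid uptake and synthesis, together with CHOP (DDIT3) and feedback regulators. The other sensors, IRE1 (ERN1) and ATF6, act through spliced XBP1 and through cleaved ATF6, and raise the chaperones, disulfide isomerases and degradation factors of the ER. The activity of these factors is set largely by translation, splicing and cleavage, so mRNA levels per gene describe only a share of the pathway. In an osteosarcoma line, the ER chaperones also serve the folding of secreted matrix proteins.

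Levels are given in FPKM, the fragments counted per kilobase of gene length after scaling for library size. Differences are log2 fold changes of FPKM + 0.1 with their standard error (SE) from limma, fitted over the 17538 genes whose mean FPKM reached 0.5, with Benjamini-Hochberg adjusted p-values over all of them. The added 0.1 makes the changes of low genes look smaller than they were. A gene rose or fell when its adjusted p was under 0.05, and passed the fold threshold when its log2 fold change also exceeded 1 in size. All 45 members entered the fit, with at least 121 reads each in every library.

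Between 26237763 and 32954539 reads fell on genes in each library. SRSF1 stood at 35.9, 19.8 and 20.5 FPKM in blank cells, at 7.09 to 7.46 FPKM with siSRSF1-2, at 3.33 to 7.90 FPKM with siSRSF1-3 and at 29.6 to 31.8 FPKM with OE-LINC01134. LINC01134 was at 878 FPKM or more in the overexpressing libraries and at 1.11 FPKM or less in the others. Some libraries stood apart from their own group. The chi-square per degree of freedom between replicates, which is 1 for counting error alone, was 2.75 for blank replicates 2 and 3 but 63.2 and 66.4 for pairs with blank replicate 1. It was 2.60 to 3.2 among the siSRSF1-2 libraries, 2.13 for OE-LINC01134 replicates 1 and 3, 66.5 and 68.6 for pairs with OE-LINC01134 replicate 2, and 92.8 to 316 among the siSRSF1-3 libraries. The labels do not say whether replicates were separate cultures, so p-values measure only the spread between these libraries, which may be technical. Of 7 osteoblast and mesenchymal markers, COL1A2 was at 0.0131 FPKM or less in every library, and the summed level of the list was 322 to 439 FPKM in blank cells, 167 to 171 FPKM with siSRSF1-2, 169 to 279 FPKM with siSRSF1-3 and 149 to 374 FPKM with OE-LINC01134. The summed level of 8 markers of other cell types was 7.78 to 10.3 FPKM in blank cells, 14.1 to 17.8 FPKM with siSRSF1-2, 13.1 to 54.1 FPKM with siSRSF1-3 and 9.08 to 9.78 FPKM with OE-LINC01134. Most of this was HBB, a beta-globin gene, and CD3E was at 0 in every library. The part of these shifts in the results was not tested, and in bulk RNA fewer cells of a type and less RNA per cell cannot be told apart.

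In blank cells, ATF4 had the highest level of the 45 members, 301.8 ± 8.21 FPKM (SD, n = 3), above 99.5% of all genes tested. Its levels overlapped those of the next member, CALR (calreticulin, a lectin chaperone), at 285 ± 42.4 FPKM. HSPA5 (BiP, the main ER chaperone of the HSP70 family) followed at 168 ± 11.1 FPKM and did not overlap CALR. The amino acid transporter genes SLC7A5 and SLC3A2, which encode the 2 chains of one carrier, came next at 142 ± 9.16 and 135 ± 9.29 FPKM, and their ranges overlapped. At the other end stood EIF2AK3 at 2.26 ± 0.0672 FPKM and STC2, a secreted glycoprotein, at 1.76 ± 0.80 FPKM. The other sensor genes were also low, with ATF6 at 10.4 ± 0.209 FPKM and ERN1 at 5.37 ± 2.36 FPKM. In the table's own coordinates, whose build is not given in the sources used here, ATF4 lies on chromosome 22 from 39519695 to 39522685 on the plus strand, and HSPA5 on chromosome 9 from 125234853 to 125241330 on the minus strand.

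Blank replicate 1 stood apart from the other blank libraries, and 5 of the 45 members differed over 2-fold between it and the mean of the others, where 12% of all genes tested did. DDIT3 was at 30.1 FPKM in it and at 114 and 108 FPKM in replicates 2 and 3. PPP1R15A (GADD34, which returns eIF2α to its unphosphorylated form) was at 50.1, 178 and 173 FPKM, and TRIB3, a pseudokinase and ATF4 target, at 54.9, 125 and 124 FPKM. These genes, with STC2 and ERN1, were the 5, and all were lower in replicate 1. The members' share was close to that of all genes. ATF5 went the other way, with 18.9 FPKM in replicate 1 against 9.64 and 9.77 FPKM. ATF4 mRNA itself varied little, at 311, 298 and 296 FPKM. Every comparison with blank cells carries this spread, and the 3 comparisons share the same blank libraries.

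**Figure D1:**
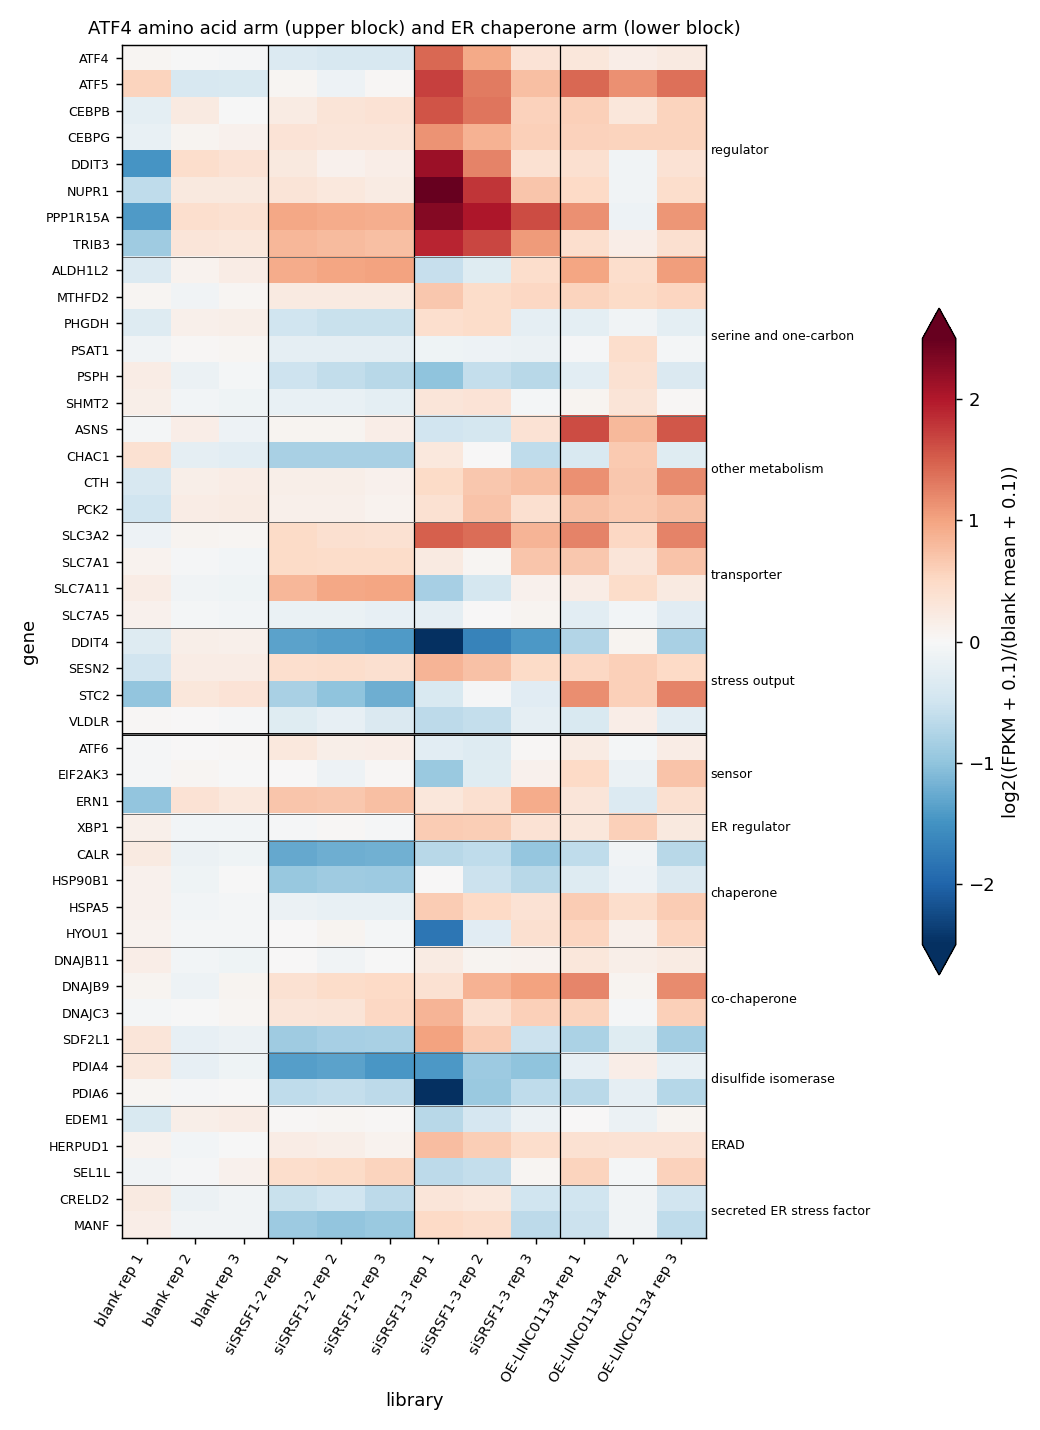
Heat map of the 45 members (rows, grouped by role within the ATF4 amino acid arm above and the ER chaperone arm below) in the 12 libraries (columns), coloured by log2 of FPKM + 0.1 over the blank mean + 0.1. The siSRSF1-2 libraries look alike, the siSRSF1-3 libraries differ among themselves, and DDIT3 and PPP1R15A are low in blank replicate 1.

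With siSRSF1-2, genes of the ATF4 amino acid arm moved in both directions. Of the 4 transporters 3 rose, as did the mitochondrial folate enzymes ALDH1L2 and MTHFD2, while ATF4 itself, the serine synthesis enzymes and DDIT4 fell. Of the 26 members, 6 rose and 7 fell at any fold change, where 26.8% of all genes tested passed, 14% higher and 12.8% lower. Of the 26, 1 member, DDIT4, passed the fold threshold, which 4.95% of all genes did, 2.22% higher and 2.73% lower. The median log2 fold change of the arm was 0.15, against 0.02 over all genes, but without blank replicate 1 it was -0.0017, with 13 members above 0 and 13 below, and without blank replicate 3 it was 0.25. The groups did not overlap for 18 of the 26 members, 9 higher and 9 lower, where 25.3% of all genes were higher and 24.2% lower without overlap. When the 3 siSRSF1-2 libraries were averaged into 1, none of the 26, and none of all genes, had an adjusted p under 0.05 in limma, and 4 higher and 3 lower had an unadjusted p under 0.05, as 6.81% and 7.15% of all genes did. In one fit over all 4 groups, whose spread includes that of siSRSF1-3, only SLC7A11 of the 26 passed, at any fold, where 3.76% of all genes did. Without blank replicate 1 the count was 21 of 26 in place of 13, while the share of all genes went from 26.8% to 52.2%. Without siSRSF1-2 replicate 2 or replicate 3 it was 6, with 10.7% and 10.4% of all genes.

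ATF4 was at 311, 298 and 296 FPKM in blank cells and at 237, 228 and 229 FPKM with siSRSF1-2. All siSRSF1-2 libraries were below all blank ones, and ATF4 mRNA fell by 0.38 on the log2 scale (SE 0.05, limma adjusted p = 0.00497). The other 7 of 8 regulators of the arm had log2 fold changes above 0, as 51.7% of all genes did. Of the 8, 3 lay above the blank group without overlap, 1 lay below it and 4 overlapped it. Of all genes, 25.3% were higher and 24.2% lower without overlap. The mean FPKM of TRIB3 was 1.73 times that of blank cells and above every blank library, but TRIB3 did not pass the test. The mean FPKM of DDIT3 was 1.13 times that of blank cells, and that of ATF5 was 0.991 times. CEBPG, a bZIP partner of ATF4, was at 21.3, 25.6 and 26.4 FPKM in blank cells and at 31.0, 30.3 and 30.1 FPKM with siSRSF1-2. It rose by 0.32 (SE 0.09, limma adjusted p = 0.046), a call that held in 1 of 6 fits that left out a library.

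The transporters rose in 3 of 4 cases. SLC7A11 (xCT, the cystine and glutamate exchanger) was at 24, 19.8 and 19.6 FPKM in blank cells and at 37.5, 41.2 and 42.0 FPKM with siSRSF1-2, a log2 fold change of 0.93 (SE 0.10, limma adjusted p = 0.00278). SLC3A2 (4F2hc, the heavy chain that xCT and SLC7A5 need at the membrane) was at 124, 141 and 139 FPKM and at 187, 179 and 175 FPKM, a log2 fold change of 0.42. SLC7A1, a carrier of cationic amino acids, went from 29.8, 27.4 and 26.7 FPKM to 38.7, 38.4 and 38.5 FPKM, a log2 fold change of 0.46. In these 3 genes the groups did not overlap, and the calls held whichever library was left out. SLC7A5, the large neutral amino acid carrier, was at 135 to 153 FPKM in blank cells and at 123 to 127 FPKM with siSRSF1-2, and did not pass the test.

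Serine and one-carbon genes split. The mitochondrial folate enzyme ALDH1L2 was at 3.94, 5.32 and 5.73 FPKM in blank cells and at 9.60, 9.97 and 10.1 FPKM with siSRSF1-2, a log2 fold change of 0.99 (SE 0.14, limma adjusted p = 0.00642). MTHFD2, another mitochondrial folate enzyme, was at 92.9, 85.1 and 93.2 FPKM and at 106, 106 and 105 FPKM, a log2 fold change of 0.22. Both rose, ALDH1L2 by the larger amount. PHGDH, the first enzyme of serine synthesis, was at 36.4, 49.6 and 50.7 FPKM and at 32.2, 30.9 and 30.9 FPKM, and fell by 0.52 on the log2 scale. PSAT1, the second enzyme, was at 58.9, 63.2 and 64.7 FPKM and at 53.3, 53.4 and 53.3 FPKM, and fell by 0.22. PSPH, the last enzyme, was at 25.8, 20.5 and 21.9 FPKM and at 15.9, 14.9 and 14.0 FPKM, and fell by 0.60. So each of the 3 serine synthesis enzymes fell without overlap between the groups. The calls of PHGDH, PSAT1 and MTHFD2 held in 1 of 6 fits that left out a library, and that of PSPH in 4. SHMT2, which makes glycine from serine in mitochondria, was at 58.4 to 69.9 FPKM and at 52.8 to 55.2 FPKM and did not pass.

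Among the stress outputs, DDIT4 (REDD1, an inhibitor of mTORC1 signaling, on chromosome 10 from 72273920 to 72276036) was at 70.5, 98.3 and 96.5 FPKM in blank cells and at 34.9, 33.8 and 33.1 FPKM with siSRSF1-2. Every siSRSF1-2 value lay below every blank value, and DDIT4 fell by 1.36 on the log2 scale (SE 0.13, limma adjusted p = 0.00236). VLDLR, a lipoprotein receptor, was at 4.13, 4.11 and 3.96 FPKM and at 3.28, 3.52 and 3.13 FPKM, and fell by 0.29. SESN2, another stress output, was above every blank library, with a mean FPKM 1.34 times that of blank cells, but did not pass. CHAC1, which breaks down glutathione, was listed with the other metabolism genes and not with the stress outputs. It was at 41.3, 27.2 and 26.3 FPKM and at 17.9, 18 and 18.1 FPKM, and fell by 0.78 (limma adjusted p = 0.0235). CHAC1 lost its call in 3 of 6 fits that left out a library, and VLDLR in 5. The 13 members that did not pass had log2 fold changes from -0.90 (STC2) to 1.14 (PPP1R15A). PPP1R15A was at 261, 255 and 251 FPKM, above every blank library, but its spread over the blank libraries was wide (SE 0.49, limma adjusted p = 0.136).

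The ER chaperone arm with siSRSF1-2 had its largest changes downward. Of 19 members, 7 fell and 3 rose at any fold change, where 12.8% of all genes fell and 14% rose. CALR and PDIA4 passed the fold threshold, both lower, as 2.73% of all genes did. The median log2 fold change was -0.02, or between -0.05 and -0.02 with any 1 library left out, and the groups did not overlap for 6 higher and 8 lower members, against 25.3% and 24.2% of all genes. Those that fell were 2 chaperones, 2 disulfide isomerases, 1 co-chaperone and 2 secreted factors, and those that rose were 2 co-chaperones and a degradation factor. With the siSRSF1-2 libraries averaged, that group held 1 library, so the fit could not decide which of the 19 changed. In one fit over all 4 groups 3 passed, all lower, where 3.76% of all genes passed. Leaving out 1 library gave 7 to 15 members in place of 10. The share of all genes then ran from 10.4% to 52.2%, in place of 26.8%.

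PDIA4 (ERp72, a protein disulfide isomerase, on chromosome 7 from 149003062 to 149028641) was at 38.6, 28.1 and 29.8 FPKM in blank cells and at 12.3, 12.8 and 11.7 FPKM with siSRSF1-2. It fell by 1.37 on the log2 scale (SE 0.13, limma adjusted p = 0.00208). CALR (on chromosome 19 from 12938578 to 12944489) was at 334, 256 and 266 FPKM and at 118, 122 and 124 FPKM, and fell by 1.22 (SE 0.11, limma adjusted p = 0.00181). For both genes the lowest blank value was over 2 times the highest siSRSF1-2 value. HSP90B1 (GRP94, the HSP90 of the ER) was at 141, 121 and 129 FPKM and at 67.5, 70.5 and 69.5 FPKM, and fell by 0.91. PDIA6, another disulfide isomerase, was at 95.9, 90.9 and 91.7 FPKM and at 59.9, 61.1 and 59.1 FPKM, and fell by 0.63. The groups of HSP90B1 and PDIA6 lay well apart, and replicate 1 was the highest blank library for each of these 4 genes.

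MANF, a small secreted factor that responds to ER stress, was at 22.7, 19.3 and 19.1 FPKM in blank cells and at 10.9, 10.2 and 10.6 FPKM with siSRSF1-2, and fell by 0.94. SDF2L1, a partner of the ER co-chaperones, was at 70.0, 48.8 and 51.1 FPKM and at 30.5, 31.7 and 32.1 FPKM, and fell by 0.83. CRELD2, a secreted ER stress protein, was at 13.7, 10.6 and 11 FPKM and at 7.93, 8.36 and 7.50 FPKM, and fell by 0.56. In all of them the siSRSF1-2 values lay below the blank ones, and the call of CRELD2 held in 3 of 6 fits that left out a library. SEL1L, the adaptor of the HRD1 ubiquitin ligase in ER-associated degradation, was at 10.6, 11.1 and 12.2 FPKM and at 15.3, 15.9 and 16.6 FPKM, and rose by 0.49 (SE 0.08, limma adjusted p = 0.00775). DNAJB9 (ERdj4) was at 7.50, 6.56 and 7.50 FPKM and at 9.39, 9.95 and 10.2 FPKM, and rose by 0.45. DNAJC3 (P58IPK, a co-chaperone and inhibitor of PERK) was at 4.34, 4.45 and 4.65 FPKM and at 5.57, 5.62 and 6.45 FPKM, and rose by 0.38, a call that held in 1 of 6 fits that left out a library. So the members of this arm did not move as 1 block.

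HSPA5, the usual marker of the unfolded protein response, was at 180, 160 and 163 FPKM in blank cells and at 152, 147 and 147 FPKM with siSRSF1-2. The siSRSF1-2 libraries were all lower, but the log2 fold change of -0.17 did not pass (SE 0.06, limma adjusted p = 0.102). XBP1 was at 65.5, 57.2 and 56.7 FPKM and at 58.4, 61.3 and 58.3 FPKM, so the groups overlapped (log2 fold change -0.01, SE 0.07). HYOU1, another large ER chaperone, was at 16.4 to 18.1 FPKM and at 16.5 to 17.9 FPKM, also with overlap.

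**Figure D2:**
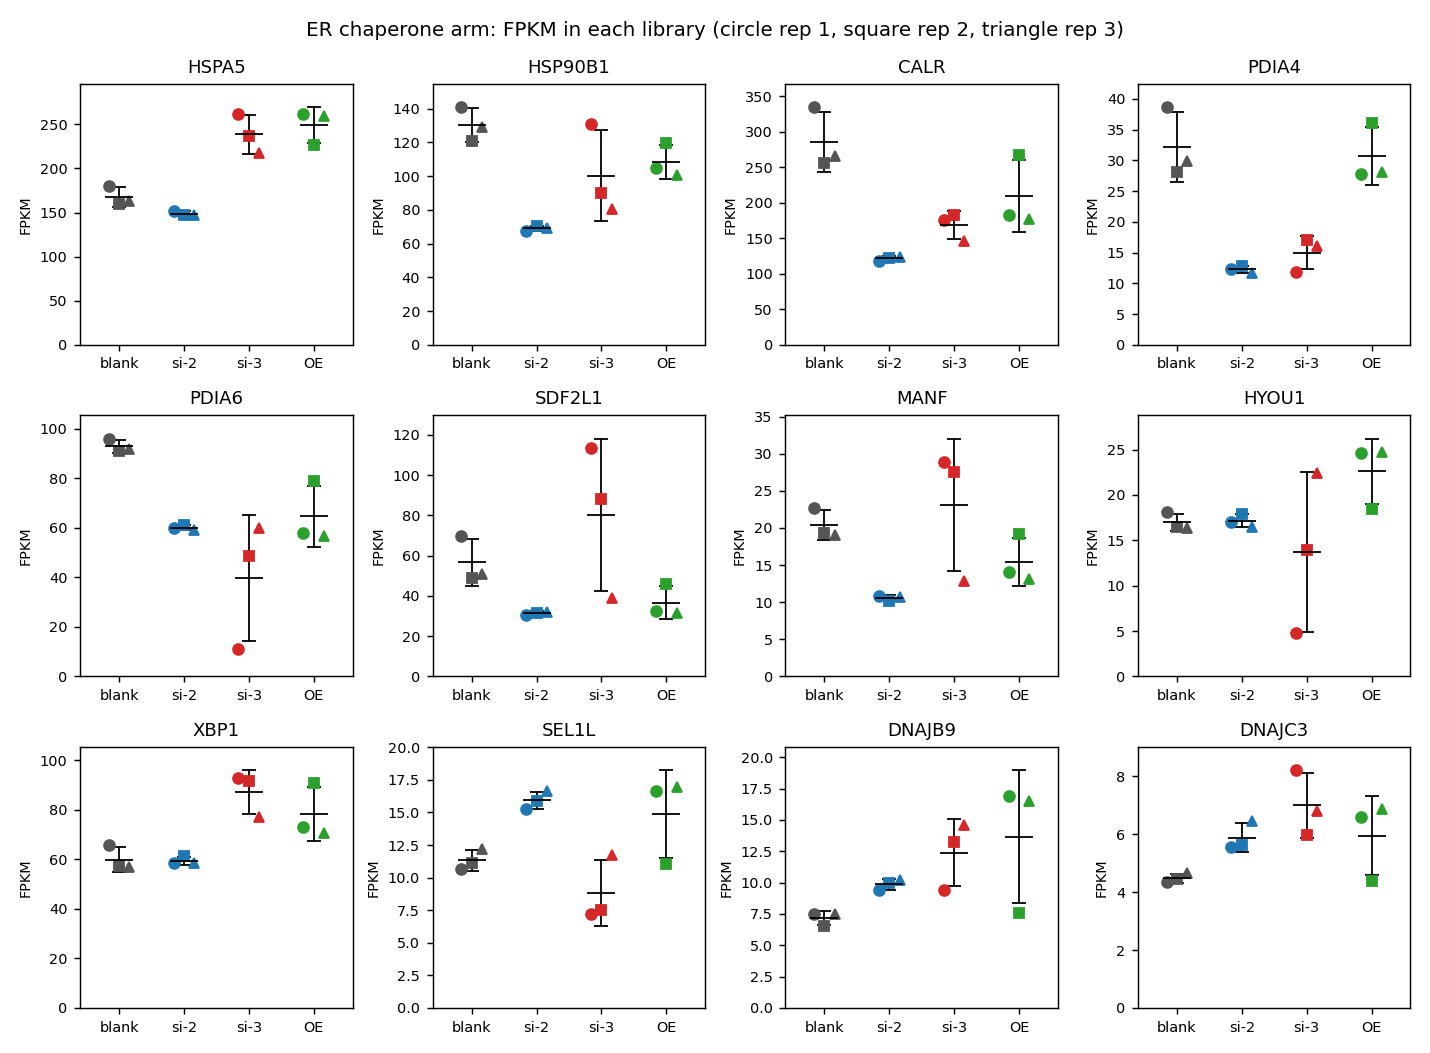
FPKM of 12 members of the ER chaperone arm in each library of the blank, siSRSF1-2 (si-2), siSRSF1-3 (si-3) and OE-LINC01134 (OE) groups, with a bar at the mean and error bars of 1 SD (n = 3). CALR and PDIA4 are below every blank library with both siRNAs, and PDIA6 and HYOU1 are lowest in siSRSF1-3 replicate 1.

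With siSRSF1-3, no member of either arm had an adjusted p under 0.05 against blank cells in the limma fit, where 1.28% of all genes had one and 1.26% also passed the fold threshold. At an unadjusted p under 0.05 and a log2 fold change over 1 in size, 6 members of the ATF4 arm were higher and 1 lower, and 2 members of the ER arm were lower, where 7.57% of all genes were higher and 7.24% lower. The voom fit of the recovered reads called SLC3A2 as higher and DDIT4 and PDIA4 as lower, with 3.35% of all genes called. Without siSRSF1-3 replicate 3, 9 members of the ATF4 arm passed, 8 higher and 1 lower, and 2 of the ER arm, but so did 23.9% of all genes. The median log2 fold change was 0.43 in the ATF4 arm and 0.03 in the ER arm, against -0.01 over all genes, and that of the ER arm lay between -0.10 and -0.0093 when siSRSF1-3 replicate 1 or 2 or blank replicate 2 or 3 was left out, and at 0.15 or 0.14 when blank replicate 1 or siSRSF1-3 replicate 3 was. In the ATF4 arm, 12 members were higher and 4 lower without overlap of the groups, where 19.2% of all genes were higher and 18% lower, and in the ER arm 5 were higher and 3 lower. When FPKM were instead scaled by the read totals of the libraries, the median over all genes moved to -0.26 and that of the ATF4 arm to 0.17, and with the same sum in every library they were -0.43 and -0.02. Under each scaling, 16 of the 26 members were above the median of all genes. As deposited, the median log2 ratio of the ATF4 arm to the blank mean was 0.40, 0.47 and 0.39 in the siSRSF1-3 libraries. In the blank libraries it was -0.16, 0.08 and 0.05.

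The regulators of the ATF4 arm had the highest values with siSRSF1-3, though with a wide spread. Their log2 fold changes ran from 0.87 to 2.20 with a median of 1.40, and 7 of the 8 did not overlap the blank group. PPP1R15A was at 655, 546 and 417 FPKM, against 50.1, 178 and 173 FPKM in blank cells, a log2 fold change of 2.20 (SE 0.53, limma adjusted p = 0.0772). NUPR1, a small stress-induced chromatin protein, was at 233, 126 and 59.0 FPKM, against 23.4, 43.2 and 43.2 FPKM, a log2 fold change of 1.77 (SE 0.52, limma adjusted p = 0.102). In both genes replicate 1 was the highest siSRSF1-3 library and replicate 3 the lowest, but still above all blank libraries. TRIB3 was at 377, 324 and 211 FPKM, against 54.9, 125 and 124 FPKM, a log2 fold change of 1.64 (SE 0.41). ATF5, a bZIP factor related to ATF4, was at 42.1, 31.4 and 21.7 FPKM, against 18.9, 9.64 and 9.77 FPKM, a log2 fold change of 1.33 (SE 0.35). CEBPB, a bZIP factor that pairs with CHOP, was at 373, 319 and 187 FPKM, against 106, 147 and 125 FPKM, a log2 fold change of 1.17 (SE 0.33). All of these stayed above 0 on every scaling tried.

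ATF4 was at 816, 579 and 381 FPKM with siSRSF1-3, all above the blank range of 296 to 311 FPKM, a log2 fold change of 0.90 (SE 0.35, limma adjusted p = 0.15). DDIT3 was at 371, 198 and 109 FPKM, so replicate 3 fell inside the blank range of 30.1 to 114 FPKM (log2 fold change 1.48, SE 0.64, limma adjusted p = 0.179). CEBPG was at 53.6, 44.7 and 36.7 FPKM, all above blank, a log2 fold change of 0.87 (SE 0.21). The siSRSF1-3 libraries with the higher values of these genes were also those whose read total exceeded the library size implied by the FPKM, by 1.41 times in replicate 1 and 1.13 times in replicate 2, against 0.922 to 1.01 in the other libraries. This ratio of read total to implied library size moved with the result, and its part in it was not tested.

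Targets of ATF4 were on both sides of blank cells with siSRSF1-3. SLC3A2 was at 379, 355 and 244 FPKM, against 124, 141 and 139 FPKM in blank cells, a log2 fold change of 1.25 (SE 0.26, limma adjusted p = 0.0621). Its partner SLC7A11 was at 11.8, 15.6 and 22.9 FPKM, against 24, 19.8 and 19.6 FPKM, with overlap (log2 fold change -0.38, SE 0.27). ASNS (asparagine synthetase, a standard ATF4 target) was at 4.27, 4.35 and 7.73 FPKM, against 5.77, 6.66 and 5.46 FPKM, also with overlap. ALDH1L2 was at 3.33, 4.01 and 6.83 FPKM, SLC7A1 at 32.6, 29.0 and 45 FPKM and CHAC1 at 37.9, 31.7 and 20.3 FPKM, each overlapping blank cells. Replicate 3 was thus the highest library for SLC7A11, ASNS, ALDH1L2 and SLC7A1, the reverse of its place for the regulators. The serine enzyme PHGDH was at 61.1, 62.9 and 38.9 FPKM, PSAT1 at 58.0, 57.1 and 56.4 FPKM and PSPH at 11.3, 15.1 and 14.0 FPKM. Of these, PSAT1 and PSPH lay below the blank range, and PHGDH overlapped it. MTHFD2 was at 144, 125 and 129 FPKM, above the blank range. SESN2, PCK2 and CTH were also above every blank library. Their mean FPKM was 1.61, 1.42 and 1.55 times that of blank cells, though none passed the adjusted test.

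DDIT4 was at 11, 27.7 and 32.6 FPKM with siSRSF1-3, below all blank libraries, with a log2 fold change of -2.02 (SE 0.42, limma adjusted p = 0.061). VLDLR was at 2.55, 2.65 and 3.44 FPKM, also below the blank range. The siSRSF1-3 libraries of DDIT4 were thus below blank cells as the siSRSF1-2 libraries were, in comparisons that share the blank libraries.

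**Figure D3:**
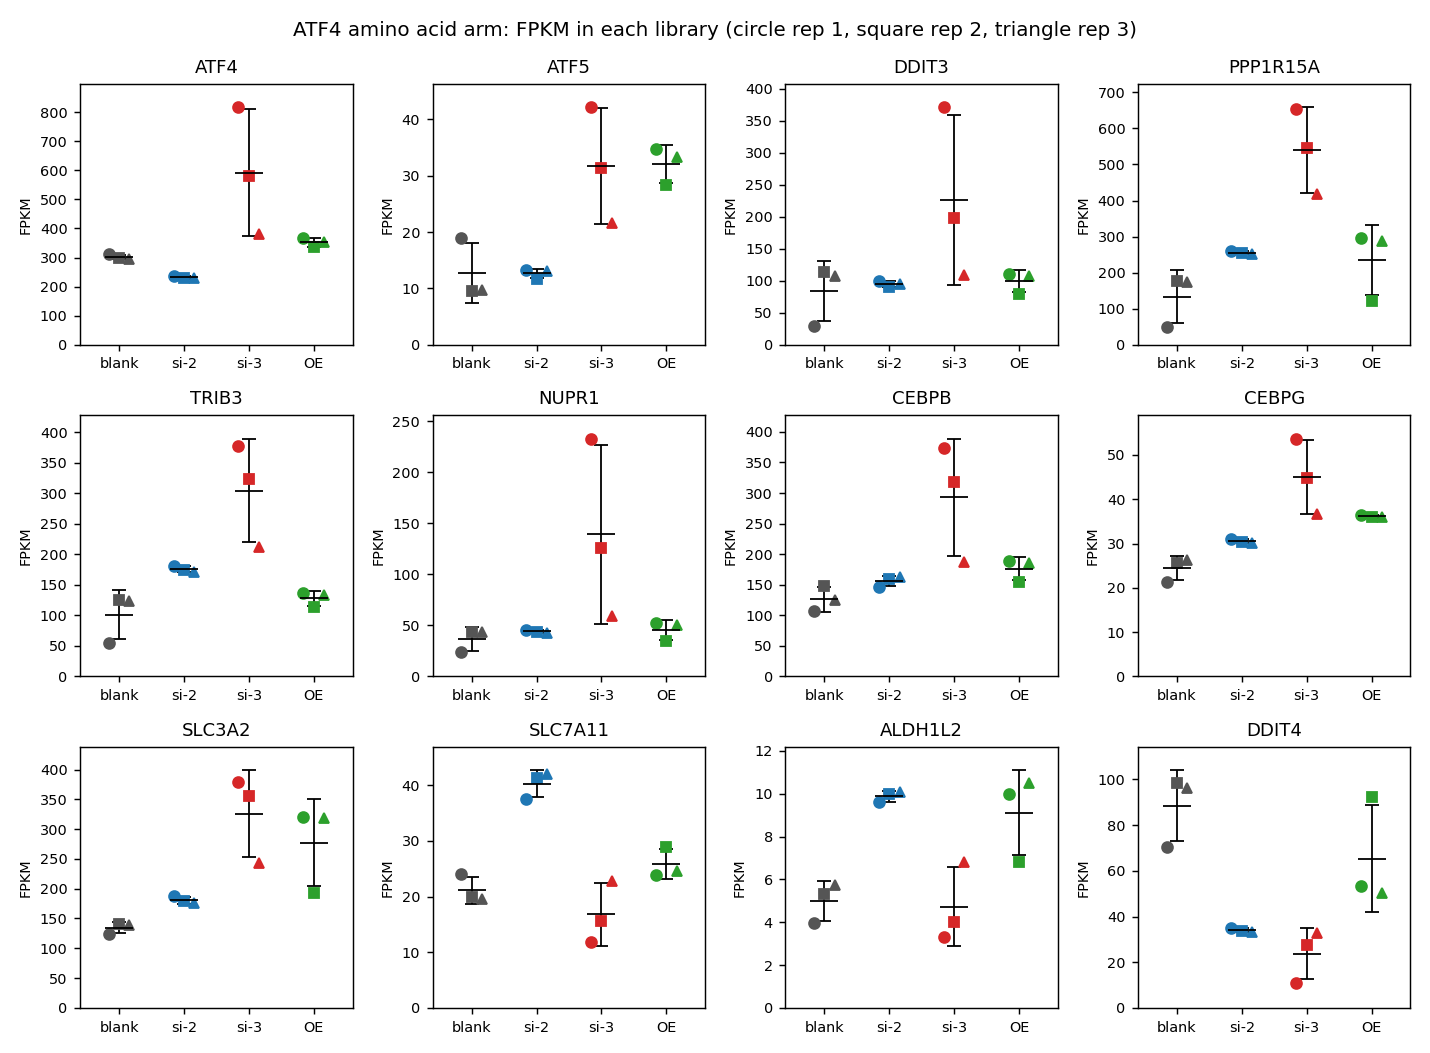
FPKM of 12 members of the ATF4 amino acid arm in each library of the blank, siSRSF1-2 (si-2), siSRSF1-3 (si-3) and OE-LINC01134 (OE) groups, with a bar at the mean and error bars of 1 SD (n = 3). ATF4 reaches 816 FPKM in siSRSF1-3 replicate 1 and lies below the blank libraries with siSRSF1-2, and DDIT4 lies below the blank libraries with both siRNAs.

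In the ER arm with siSRSF1-3, the disulfide isomerases had the lowest values. PDIA4 was at 11.9, 17.0 and 16.1 FPKM, against 38.6, 28.1 and 29.8 FPKM in blank cells, a log2 fold change of -1.10 (SE 0.22, limma adjusted p = 0.0575). PDIA6 was at 10.9, 48.4 and 59.8 FPKM, against 90.9 to 95.9 FPKM, a log2 fold change of -1.55 with a wide SE of 0.61. Replicate 1 set most of this value for PDIA6, and it was also the lowest library for HYOU1, at 4.79, 13.9 and 22.4 FPKM. CALR was at 176, 183 and 146 FPKM, below all blank libraries (log2 fold change -0.76, SE 0.24, limma adjusted p = 0.116). HSP90B1 was at 131, 89.9 and 80.3 FPKM and overlapped the blank group.

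HSPA5 was at 262, 237 and 217 FPKM with siSRSF1-3, above the blank range of 160 to 180 FPKM (log2 fold change 0.51, SE 0.22, limma adjusted p = 0.183). XBP1 was at 92.6, 91.6 and 76.8 FPKM, above 56.7 to 65.5 FPKM (log2 fold change 0.54, SE 0.19). Both stayed above 0 on each scaling, at 0.06 for HSPA5 and 0.09 for XBP1 when every library was given the same sum. HERPUD1, a degradation factor of the ER, was also above every blank library (log2 fold change 0.62), but did not pass. SDF2L1 was at 113, 88.3 and 39.0 FPKM, MANF at 28.9, 27.6 and 12.9 FPKM and CRELD2 at 14.6, 14.2 and 8.26 FPKM. For these 3 genes replicates 1 and 2 were above the blank libraries and replicate 3 below them. DNAJB9 was at 9.38, 13.2 and 14.6 FPKM and DNAJC3 at 8.21, 5.99 and 6.80 FPKM, above the blank range in every library, while SEL1L at 7.18, 7.48 and 11.7 FPKM overlapped it.

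With OE-LINC01134, no member had an adjusted p under 0.05 against blank cells, where 1.18% of all genes had one and 0.85% also passed the fold threshold. The levels of the ATF4 arm were nonetheless mostly above blank cells, with 21 of 26 log2 fold changes above 0 (54.9% of all genes) and a median of 0.47, against 0.05 over all genes. The arm's median log2 ratio to the blank mean was 0.52, 0.41 and 0.47 in the OE-LINC01134 libraries. In the blank libraries it was -0.16, 0.08 and 0.05, so blank replicate 1 was the lowest. The groups did not overlap for 13 higher members and 1 lower, where 16.8% of all genes were higher and 13.8% lower. With an unadjusted p under 0.05 and a log2 fold change over 1, 5 members of the ATF4 arm and none of the ER arm were higher, where 2.45% of all genes were. The voom fit of the recovered reads called 4 of the ATF4 arm and none of the ER arm, with 1.98% of all genes called. Without OE-LINC01134 replicate 2, 5 members of the ATF4 arm and 1 of the ER arm passed, as did 8.78% of all genes, and without blank replicate 1, 2 of the ATF4 arm did, as did 5.49% of all genes.

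ASNS was at 18.7, 10.5 and 17.8 FPKM with OE-LINC01134, against 5.77, 6.66 and 5.46 FPKM in blank cells, a log2 fold change of 1.34 (SE 0.23, limma adjusted p = 0.0513). ATF5 was at 34.7, 28.3 and 33.3 FPKM, against 18.9, 9.64 and 9.77 FPKM, a log2 fold change of 1.39 (SE 0.27, limma adjusted p = 0.0606). Neither gene overlapped the blank group, and replicate 2 was the lowest OE-LINC01134 library for both. CTH, which makes cysteine from cystathionine, was at 57.4, 41.5 and 59.3 FPKM, against 19.8 to 29.6 FPKM, a log2 fold change of 1.02 (SE 0.21). SLC3A2 was at 321, 193 and 318 FPKM, a log2 fold change of 1.0 (SE 0.21, limma adjusted p = 0.0679). MTHFD2 was at 133, 127 and 132 FPKM, a log2 fold change of 0.53 (SE 0.09, limma adjusted p = 0.0513). ATF4 itself was at 365, 337 and 354 FPKM, above the blank range but with a log2 fold change of only 0.22 (SE 0.09, limma adjusted p = 0.191). Of the 8 regulators, 4 lay above the blank group without overlap and 4 overlapped it. Of all genes, 16.8% were higher and 13.8% lower without overlap. CEBPB and CEBPG were among the 4 higher, with mean FPKM 1.40 and 1.48 times that of blank cells. The stress regulators DDIT3 at 112, 79.6 and 108 FPKM and PPP1R15A at 297, 122 and 287 FPKM overlapped blank cells.

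Other targets with OE-LINC01134 lay above the blank range or overlapped it, apart from SLC7A5. That gene was just below, at 134.9 FPKM in replicate 2, its highest library, against a lowest blank value of 135.4 FPKM. STC2 was at 4.06, 2.73 and 4.29 FPKM, against 0.843, 2.18 and 2.28 FPKM (log2 fold change 1.11, SE 0.39). ALDH1L2 was at 6.83 to 10.5 FPKM and SLC7A1 at 44.8, 34.7 and 45.8 FPKM, both above the blank range. SLC7A11 was at 23.9, 28.9 and 24.6 FPKM and overlapped it. CHAC1 was at 24.2, 49.9 and 25.5 FPKM and DDIT4 at 53.2, 92.5 and 50.3 FPKM. Replicate 2 was the highest library for both, over 1.5 times the mean of the others, and replicates 1 and 3 lay below the blank range of both. DDIT4 had a log2 fold change of -0.48, with overlap through replicate 2. PSPH was at 18.8, 29.7 and 17.6 FPKM, PHGDH at 38.3, 42.9 and 38.6 FPKM and VLDLR at 3.11, 4.56 and 3.36 FPKM. For PSPH and VLDLR replicates 1 and 3 were again below the blank libraries and replicate 2 above them, while PHGDH stayed inside their range.

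In the ER arm with OE-LINC01134, the median log2 fold change was 0.22, and 0.10 without blank replicate 1 or without OE-LINC01134 replicate 3. Without overlap, 5 of the 19 members were higher and 3 lower, where 16.8% of all genes were higher and 13.8% lower. HSPA5 was at 262, 226 and 259 FPKM, above the blank libraries, a log2 fold change of 0.57 (SE 0.11, limma adjusted p = 0.0601). XBP1 was at 73.0, 90.6 and 70.7 FPKM, HYOU1 at 24.6, 18.5 and 24.7 FPKM and DNAJB9 at 16.9, 7.53 and 16.5 FPKM, all above blank cells. In replicate 2, though, HYOU1 and DNAJB9 were close to their highest blank values of 18.1 and 7.50 FPKM. HERPUD1 was above every blank library too, with a mean FPKM 1.29 times that of blank cells. CALR at 183, 267 and 177 FPKM, PDIA4 at 27.8, 36.1 and 28.1 FPKM and MANF at 14.0, 19.1 and 13.1 FPKM overlapped blank cells. HSP90B1 at 105, 119 and 101 FPKM, PDIA6 at 58.0, 78.9 and 56.7 FPKM and SDF2L1 at 32.5, 46.1 and 31.4 FPKM were below every blank library. Of the 4 co-chaperones, DNAJB9 was higher, SDF2L1 lower, and the other two overlapped blank cells. None of these genes passed the adjusted test.

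**Figure D4:**
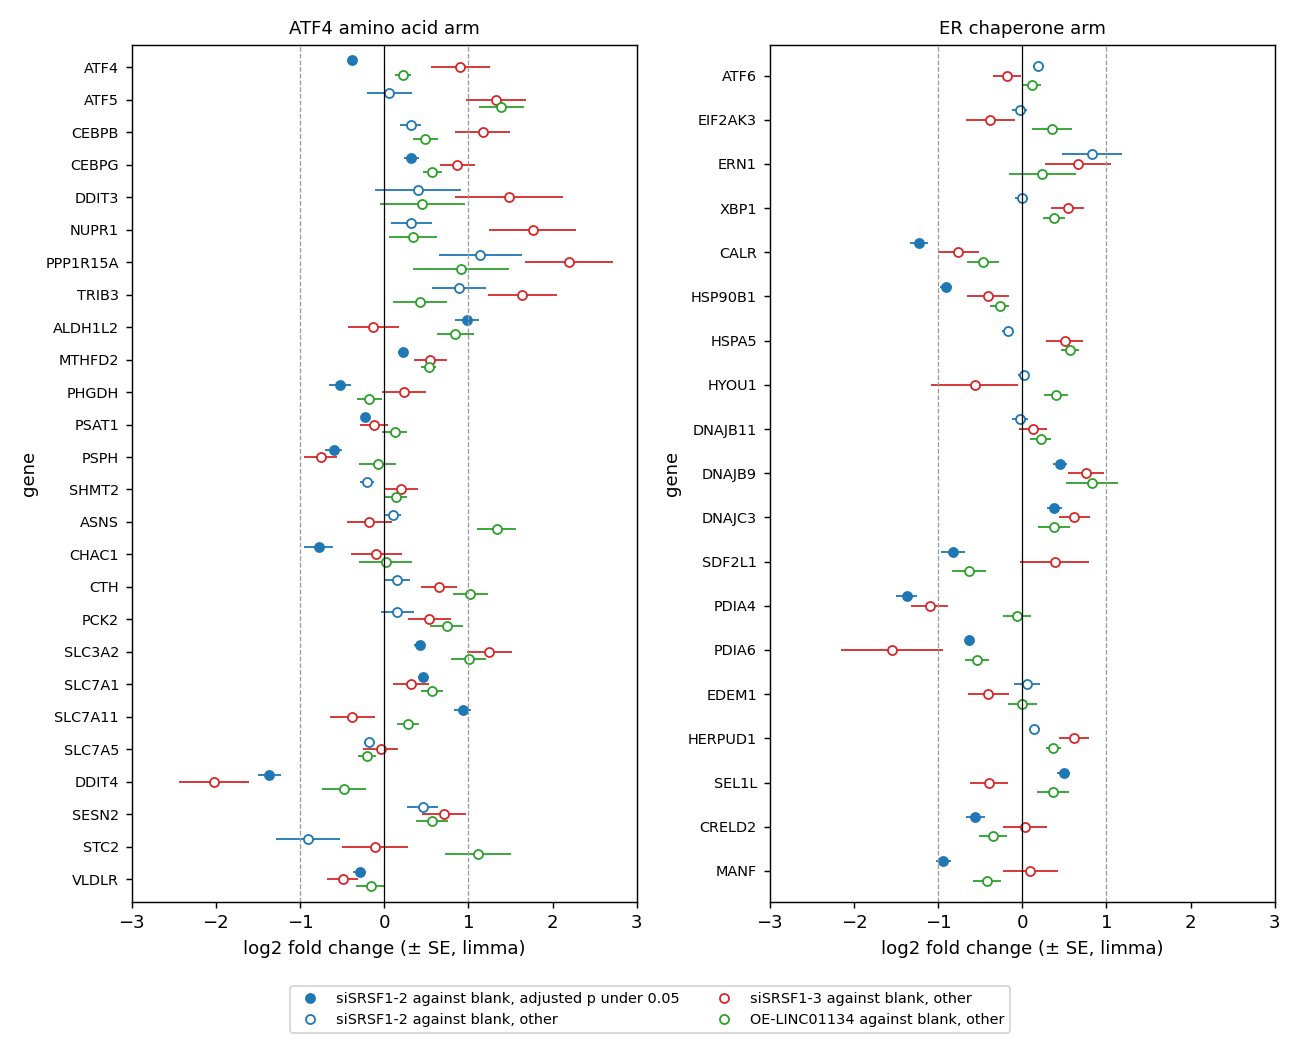
Log2 fold change with its SE (limma) of each member against blank cells, for siSRSF1-2 (blue), siSRSF1-3 (red) and OE-LINC01134 (green), which share the 3 blank libraries. Filled points have an adjusted p under 0.05, all of them with siSRSF1-2, and dashed lines mark log2 fold changes of -1 and 1.

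The siRNAs were also compared with each other, which leaves the blank libraries out. No member had an adjusted p under 0.05 for siSRSF1-3 against siSRSF1-2, where 0.0855% of all genes had one. At an unadjusted p under 0.05 and a log2 fold change over 1 in size, 5 members of the ATF4 arm were higher and 2 lower with siSRSF1-3, and 2 of the ER arm were higher, where 9.01% of all genes were higher and 7.42% lower. The voom fit of the recovered reads called none of the 45, and 0.627% of all genes. Without siSRSF1-3 replicate 3, 9 members of the ATF4 arm and 3 of the ER arm passed, but so did 30.6% of all genes. The groups did not overlap for 18 higher and 3 lower members of the ATF4 arm and for 8 higher and 3 lower of the ER arm, where 27% of all genes were higher and 27.6% lower. The median log2 fold change was 0.45 in the ATF4 arm, 0.27 in the ER arm and -0.02 over all genes. With the same sum in every library, these medians were -0.13, -0.30 and -0.57, and under each scaling 19 of the 26 and 12 of the 19 members were above the median of all genes.

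All 8 regulators of the ATF4 arm were above the siSRSF1-2 group in all 3 siSRSF1-3 libraries, with a median log2 fold change of 1.07, though CEBPG turned to -0.03 when every library was given the same sum. ATF4 was at 816, 579 and 381 FPKM with siSRSF1-3 and at 237, 228 and 229 FPKM with siSRSF1-2, a log2 fold change of 1.29 (SE 0.31, limma adjusted p = 0.0792). NUPR1 was at 233, 126 and 59.0 FPKM against 45.6, 43.9 and 42.5 FPKM, a log2 fold change of 1.45 (SE 0.48, limma adjusted p = 0.0907). In contrast, SLC7A11 was at 11.8, 15.6 and 22.9 FPKM against 37.5, 41.2 and 42.0 FPKM, a log2 fold change of -1.31 (SE 0.25, limma adjusted p = 0.0725). ALDH1L2 was at 3.33, 4.01 and 6.83 FPKM against 9.60, 9.97 and 10.1 FPKM, a log2 fold change of -1.12 (SE 0.27). So the siRNA whose libraries held more ATF4 mRNA held less mRNA of these 2 ATF4 targets. They were among the 3 members of the arm that were lower without overlap, while 18 of the 26 were higher. Of all genes, 27% were higher and 27.6% lower without overlap. Outside the regulators, the higher ones included SLC3A2, PHGDH and CHAC1, with mean FPKM 1.81, 1.73 and 1.67 times that with siSRSF1-2.

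In the ER arm, SDF2L1 was at 113, 88.3 and 39.0 FPKM with siSRSF1-3 against 30.5, 31.7 and 32.1 FPKM with siSRSF1-2, a log2 fold change of 1.21 (SE 0.39). MANF was at 28.9, 27.6 and 12.9 FPKM against 10.9, 10.2 and 10.6 FPKM, a log2 fold change of 1.03 (SE 0.32). SEL1L was at 7.18, 7.48 and 11.7 FPKM against 15.3, 15.9 and 16.6 FPKM, a log2 fold change of -0.89 (SE 0.21, limma adjusted p = 0.0768). None of these groups overlapped, and replicate 3 was the siSRSF1-3 library closest to siSRSF1-2 in each. PDIA4 was at 11.9, 17.0 and 16.1 FPKM against 12.3, 12.8 and 11.7 FPKM, with overlap, and its log2 fold change of 0.27 (SE 0.16) turned to -0.03 and -0.30 on the other scalings.

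No sensor gene passed the test in any comparison. ATF6 was at 10.2, 10.4 and 10.6 FPKM in blank cells, at 12.4, 11.6 and 11.7 FPKM with siSRSF1-2, at 8.67, 8.31 and 10.7 FPKM with siSRSF1-3 and at 12, 10.1 and 11.8 FPKM with OE-LINC01134. ERN1 was at 2.67, 6.97 and 6.49 FPKM, at 8.74, 8.68 and 9.12 FPKM, at 6.60, 7.13 and 10.4 FPKM and at 6.67, 4.21 and 7.15 FPKM in the same order. EIF2AK3 was at 2.20, 2.33 and 2.24 FPKM, at 2.27, 2.06 and 2.30 FPKM, at 1.14, 1.80 and 2.43 FPKM and at 3.22, 2.03 and 3.74 FPKM. With siSRSF1-2, ATF6 and ERN1 lay above the blank libraries, and neither passed the test (limma adjusted p = 0.0652 and 0.139). All other comparisons of the sensors with blank cells overlapped.

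Other genes of the pathway were counted from 2 lists, one of 29 stress response genes and one of 40 ER genes, of which 39 were tested. With siSRSF1-2, 4 stress genes rose and 1 fell, and 2 ER genes rose and 12 fell, at any fold change, where 14% of all genes rose and 12.8% fell. Among those with the smallest adjusted p, EDEM2, which trims mannose from misfolded glycoproteins, fell by 1.08 (limma adjusted p = 0.00126), and the disulfide isomerases PDIA3 and P4HB fell by 0.95 and 0.66. PDIA3 (ERp57, the partner of calreticulin) was at 86.5, 71.8 and 76.8 FPKM in blank cells and at 40.6, 40.1 and 40.8 FPKM with siSRSF1-2. The glutamine transporter SLC1A5 fell by 0.93, while the small GTPase RIT1 rose by 1.06.

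FGF21, a hormone whose gene ATF4 controls, was at 6.10, 7.57 and 6.07 FPKM in blank cells, at 6.96, 5.28 and 6.11 FPKM with siSRSF1-2, at 29.2, 25.2 and 17.4 FPKM with siSRSF1-3 and at 55.3, 28.3 and 52.4 FPKM with OE-LINC01134. It rose with siSRSF1-3 by 1.82 on the log2 scale (SE 0.24, limma adjusted p = 0.0426) and with OE-LINC01134 by 2.71 (SE 0.27, limma adjusted p = 0.0199). The study itself lists FGF21 among changed genes of these samples, so it is not independent evidence of a direction. LMAN1, a cargo receptor between ER and Golgi, was at 25.4, 23.3 and 24.5 FPKM in blank cells and at 8.22, 10.3 and 11.9 FPKM with siSRSF1-3, and fell by 1.28 (SE 0.19, limma adjusted p = 0.0453). These were the genes of the lists that passed with siSRSF1-3 or OE-LINC01134, where 1 of 29 stress genes and 1 of 39 ER genes passed with siSRSF1-3 and 1 of 29 and 0 of 39 with OE-LINC01134. None passed between the siRNAs.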

How the data were processed

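The authors deposited FPKM per gene and library, together with gene lengths and coordinates. Per the supplementary methods, the authors sequenced poly-A RNA (paired ends) and tested group differences by DESeq2. Those methods name another library kit than the labels, and give fewer replicates per condition than the 3 analysed here. The submitters' processing notes name the mouse builds GRCm38 and mm10, while the table holds human Ensembl identifiers and 41 scaffold names starting KI270. The aligner and counter are not given in the sources used here. FPKM times gene length gave whole reads in 100% of values (within 0.01 read), and the deposited FPKM carried median-of-ratios factors over the 12 libraries.

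Members were matched by full name (131 of 131 symbols looked up, other lists included). The limma package (version 3.58.1, under R 4.3.3) fitted log2(FPKM + 0.1) by lmFit and eBayes with trend on the 3 + 3 libraries of each comparison, without a covariate, and the fit was tested on simulated data. Members with an adjusted p under 0.05, the main regulators and sensors were named, though not all of them with the value in every library. For the other pathway genes the 5 with the smallest adjusted p in each comparison were considered. The members, lists and tests were chosen with earlier results of these data known. Alternatives were other pseudocounts (1 and 0.01), filters, scalings, one fit over all groups, a replicate block, the unadjusted p, no minimum fold, voom on the recovered reads, the averaging of libraries, and the omission of each library. The averaging of all near-identical libraries was chosen after seeing the data. Sequences were not analysed here, as no human reference was used.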

Additional observations from a re-analysis of the deposited data

How the results depend on the processing

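With siSRSF1-2 against blank cells, the 23 members that changed kept their direction in every alternative. The count past the fold threshold was 1 in the ATF4 arm and 2 in the ER arm. It became 2 in the ATF4 arm with a pseudocount of 0.01 or with scaling to own read totals, 3 with the same sum in every library and 0 in one fit over all groups, and 1 to 3 without 1 library (ER arm 2 throughout). Of all 17538 genes, 402 were higher and 527 lower with the pseudocount of 0.01, and 447 and 426 with own read totals. With the same sum they were 604 and 340, and in one fit 134 and 180. Without blank replicate 1 they were 532 and 656, and without siSRSF1-2 replicate 3 they were 201 and 333. Without a minimum fold change the members' counts were 13 and 10, with 26.8% of all genes. Those became 1 and 3 in one fit over all groups, with 3.76% of all genes. Without 1 library they were 6 to 21 and 7 to 15, with 10.4% to 52.2% of all genes. All these counts were 0 when the siSRSF1-2 libraries, or all near-identical libraries, were averaged, where fewer libraries entered the fit.

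For siSRSF1-3 against blank cells, where no member passed, one fit over all groups gave 7 members of the ATF4 arm and 2 of the ER arm, as did the unadjusted p. In that one fit 1245 of all 17538 genes were higher and 1177 lower, and by the unadjusted p 1327 and 1269. Voom gave 2 and 1, with 3.35% of all genes. The omission of 1 library gave 0 to 9 and 0 to 2, with up to 23.9% of all genes. For OE-LINC01134, the ATF4 arm had 1 with the same sum, 4 in one fit, 5 by the unadjusted p and 4 with voom. Without 1 library it had 0 to 5, and the ER arm 0 to 1. Of all 17538 genes, 83 were higher and 103 lower with the same sum, and 174 and 515 in one fit. By the unadjusted p, 430 were higher and 877 lower. Voom called 1.98% of all genes, and the omission of 1 library up to 8.78%. For siSRSF1-3 against siSRSF1-2, one fit gave 5 and 2, and the unadjusted p 7 and 2. Of all 17538 genes, 1472 were higher and 1259 lower in one fit, and 1581 and 1302 by the unadjusted p. The omission of 1 library gave 0 to 9 and 0 to 3, with up to 30.6% of all genes. The highest counts came without siSRSF1-3 replicate 3 or OE-LINC01134 replicate 2, as did the highest shares of all genes when 1 library was left out. The cause of these shifts was not tested.

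The mean over libraries of the arm's median log2 ratio to blank cells depended on the scaling. With own read totals and with the same sum, in this order, the ATF4 arm had 0.16 and 0.25 with siSRSF1-2 (0.13 as deposited), and 0.15 and -0.034 with siSRSF1-3 (0.42). The ER arm had 0.0094 and 0.10 with siSRSF1-2 (-0.04), and -0.15 and -0.33 with siSRSF1-3 (0.11). With OE-LINC01134 the ATF4 arm had 0.55 with the same sum (0.47).

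Replicate numbers did not pair the libraries: deviations of libraries with the same number correlated between -0.08 and 0.04. With a replicate block, the count at any fold with siSRSF1-2 was 8 in place of 13 in the ATF4 arm. That of the ER arm was 7 in place of 10. Of all 17538 genes, 1246 rose and 1230 fell in that fit, in place of 2452 and 2250. The counts past the fold threshold were 1 and 2, where 300 of all genes were higher and 381 lower. In the other comparisons 0 members passed.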
